A study of Bos taurus with 60 samples.

Results

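The 8 Kinsella Composite (KC) steers whose sire label is K201100043 formed the largest sire family among the 20 KC steers, and their liver miRNAs were compared with those of the other 12 KC steers. They were chosen by the sire label, whatever their feed efficiency group, and with earlier results of these data known. They are 8 of the 60 steers of the series, which also holds 20 Angus and 20 Charolais steers. KC is a crossbred beef herd with Angus and Charolais ancestry among others. All the steers were castrated males on the same barley-based finishing diet with rumensin pellets, and the liver was taken after slaughter in the year after birth. RFI (residual feed intake) is the feed an animal eats beyond what its growth and weight predict, so a low-RFI steer is an efficient one. The labels gave a low-RFI group for 1, a high-RFI group for 3 and no group for 4 of the 8 family steers. Among the other 12 steers, 5 were low-RFI, 3 were high-RFI and 4 had no group. These 12 carried 10 sire labels, of which K201100176 covered 3 steers and 9 labels covered 1 steer each. One of these 9 is NA00000001, and the labels do not say whether it names a known sire. The family stands for 1 sire, and the labels used here name no dams, so the p-values below measure the spread between steers and not between sires.

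A microRNA (miRNA) is a short RNA cut from a hairpin precursor, and bases 2 to 8 of its mature form, the seed, pair with messenger RNAs, which are then translated less or degraded. Paternal progeny share a portion of the sire's alleles, so a family can differ from its herd mates in a miRNA whose level is set by a variant that the sire passed on. The steers are males and take their X chromosome from the dam, so this leaves out variants on the sire's X chromosome. In a liver sample most miRNA comes from hepatocytes, with smaller amounts from blood, vessel, bile duct and stellate cells. Values are CPM (counts scaled to a common library total, with TMM factors), and the test covered the 391 miRNAs that reached 1 CPM in 8 or more of the 20 steers. Library totals ran from 3637007 to 6408603 counts in the family (median 5232046) and from 4148747 to 6759381 in the others (median 5547018), and did not differ beyond their spread (two-sided exact permutation p = 0.523). A floor of 3 counts lies at 0.444 to 0.825 CPM, depending on the steer, and covers counting error only, and a miRNA near 1 CPM rests on a few counts per steer.

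The mature sequences of the only miRNA called in the comparison, miR-190a, and of the 9 with the next smallest p-values are shown with the seed in capitals, since they carry the comparison. miR-2284y and miR-2285av are added because they are near-identical to miR-2284x.
bta-miR-190a: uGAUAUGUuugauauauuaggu
bta-miR-335: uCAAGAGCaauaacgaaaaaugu
bta-miR-2285br: aAAACCUGaaugaacuuucugu
bta-miR-424-5p: cAGCAGCAauucauguuuuga
bta-miR-450b: uUUUGCAAuauguuccugaaua
bta-miR-455-3p: gCAGUCCAugggcauauacacu
bta-miR-6522: uCGGAAUUguuuguguaccugu
bta-miR-6517: uCAGGGUCcgugagcuccucggc
bta-miR-2284x: uGAAAAGUucguucggguuuu
bta-miR-2284y: aAAAGUUCguucggguuuuuc
bta-miR-2285av: aAAAGUUCguucggguuuuu
bta-miR-2284b: aAAAGUUCguuugguuuuuuc
The last 4 illustrate a bovine repeat-derived group. miR-2284y, miR-2285av and miR-2284b share the seed AAAGUUC, while miR-2284x starts 2 bases earlier on nearly the same letters and so has the seed GAAAAGU. By an alignment of at least 18 bases with at most 1 mismatch, miR-2284x had 12 near-identical names in the study's sequence list, miR-2284y had 13 and miR-2285av had 14. No near-identical name was found for miR-190a, miR-335, miR-424-5p, miR-450b, miR-455-3p, miR-6522 or miR-6517.

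Apart from miR-190a, no miRNA was called in the family. Of the 391 miRNAs, 1 passed an adjusted p-value under 0.05 (0.256%). Without adjustment, 22 (5.63%) were under 0.05, and 19.6 such p-values are expected on average if no miRNA differs. Of these 22, 9 (2.3%) were higher and 13 (3.32%) lower in the family. With a fold change above 1.5 as well, the rule used by the study for RFI, 6 miRNAs (1.53%) were counted. These were miR-190a, miR-2285br and miR-455-3p on the higher side (0.767%) and miR-424-5p, miR-6522 and miR-6517 on the lower side (0.767%). Besides miR-190a the smallest adjusted p-value was 0.801 (edgeR quasi-likelihood test with Benjamini-Hochberg adjustment over all 391). No miRNA separated the 8 family steers from the other 12 without overlap (0 of 391). The fold changes lay on both sides of zero, with 198 above and 193 below, and their median was 0.0024 on the log2 scale.

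**Figure D1:**
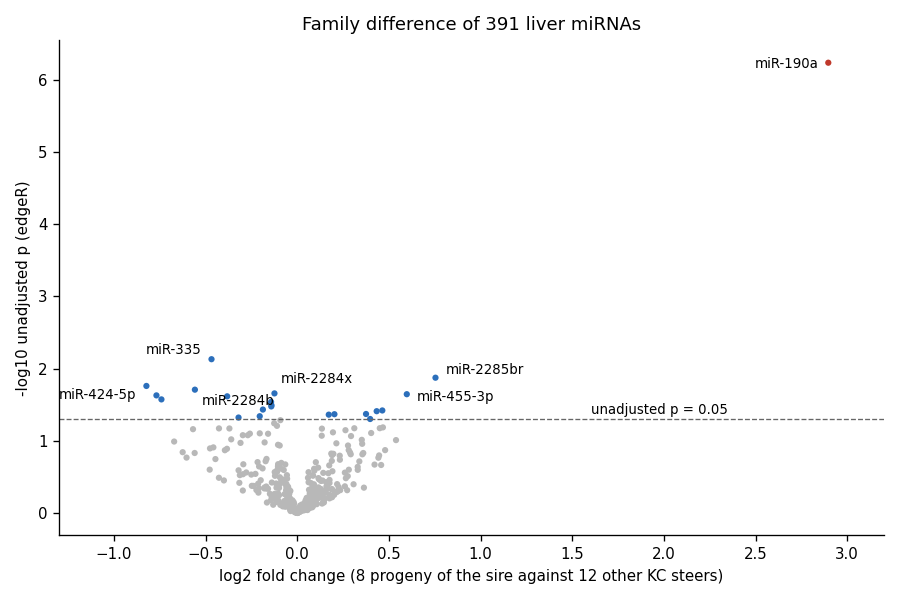
Each point is one of the 391 tested miRNAs, with the log2 fold change of the family against the other KC steers on the horizontal axis and -log10 of the unadjusted edgeR p-value on the vertical axis. Red marks the 1 miRNA with an adjusted p-value under 0.05 and blue the others with an unadjusted p-value under 0.05, and miR-190a stands alone at a log2 fold change of 2.90 while the next in size is miR-424-5p at -0.82.

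The intervals show approximately how large a family difference could have gone unseen. The standard error of the log2 fold change had a median of 0.168 over all miRNAs, of 0.109 for the 213 miRNAs at a mean of 10 CPM or more and of 0.247 for the 178 below that level. The 95% interval of the family difference lay within a 2-fold change in either direction for 360 of 391 miRNAs and within a 1.5-fold change for 255. Among the 213 more abundant miRNAs it lay within a 1.5-fold change for 195. Among the 178 less abundant ones it did so for 60. These intervals take 1.96 standard errors, slightly fewer than the F test would, so the counts are somewhat high. They cover the spread between steers and not between sires.

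miR-190a serves as the reference for size. This miRNA is encoded within the span of TLN2, the gene of the cytoskeletal protein talin 2, and its log2 fold change in the family was 2.90 (SE 0.42, adjusted p = 0.00023). This call was lost with limma-voom (adjusted p = 0.161), with sire as a random block as well (adjusted p = 0.374) and by the exact permutation test (adjusted p = 0.0735). Its level had a median of 8.52 CPM over the 8 family steers, with extremes of 0.609 and 11.2. The highest value in the others was 1.45 CPM. The steer at 0.609 CPM was the only low-RFI one of the family. Among high-RFI steers the difference in mean log2 CPM was 2.99, and among steers without an RFI group it was 1.99. For the single low-RFI family steer against the other low-RFI steers it was -0.04. The paper lists miR-190a as lower in low-RFI than in high-RFI KC steers. By the labels those steers are among the same 20, and 3 of 6 high-RFI but 1 of 6 low-RFI steers are of this family. The RFI and family contrasts of miR-190a are therefore not independent. On the log2 CPM scale the SD of miR-190a was 1.63 within the family and 0.630 within the others. The ratio of the 2 SDs ranked 2 among the 391 miRNAs. The related miR-190b, which shares the seed, had 1.004 CPM in the family and 0.893 in the others (medians), with a log2 fold change of 0.07 (SE 0.37).

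Among the miRNAs with a positive log2 fold change, miR-2285br had the largest log2 fold change after miR-190a. In the family it ranged from 0.254 to 2.17 CPM with a median of 1.39, and in the others from 0.176 to 1.23 CPM with a median of 0.856. The lowest family steer lay among the lowest of all 20, while the other 7 were above every one of the 12 other steers. No other of the 391 miRNAs had 7 family steers outside the range of the others on the same side, and only miR-190a had 6. The log2 fold change was 0.75 (SE 0.28, p = 0.0134, adjusted p = 0.801 by edgeR), and the exact permutation test of mean log2 CPM, in which the lowest steer weighs more, gave p = 0.0652. These values rest on 1 to 14 counts in the family (median 7.5) and 1 to 7 in the others (median 4). The median of the others lay below 1 CPM, so the minimum level for the test was not met without the family steers. Its sequence has 1 near-identical name, miR-2285bn.

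miR-455-3p, known from cartilage, comes from a hairpin within the span of the collagen gene COL27A1. In the family it ranged from 27.2 to 89.7 CPM (median 39.98), and in the others from 14.5 to 57.3 CPM (median 30.9). Of the 8 family steers, 7 were above the median of the others and 2 were above their maximum. The log2 fold change was 0.60 (SE 0.24, p = 0.0227, adjusted p = 0.801). The other arm of the same hairpin, miR-455-5p, ranged from 57.4 to 149.4 CPM in the family (median 78.0) and from 32.4 to 123.7 CPM in the others (median 59.5), with a log2 fold change of 0.40 (SE 0.22, p = 0.0781). The same steer, the only low-RFI one of the family, was highest for both arms. Without it the log2 fold change of miR-455-3p by edgeR was 0.40, and among high-RFI steers alone, 3 of the family and 3 others, it was 0.08. The difference in mean log2 CPM was 0.32 among high-RFI steers and 0.30 among steers without an RFI group. It was 1.83 for the single low-RFI family steer against the other low-RFI steers.

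The remaining miRNAs on the higher side had log2 fold changes between 0.17 and 0.46, none of them called. miR-9-5p, a miRNA best known from neurons, ranged from 5.67 to 15.99 CPM in the family (median 8.75) and from 4.62 to 11.5 CPM in the others (median 6.82). The difference in mean log2 CPM was 0.92 among the steers without an RFI group and -0.08 among the high-RFI steers. miR-1249 had medians of 6.01 and 4.37 CPM, and miR-652 had medians of 22.6 and 21.1 CPM. miR-21-5p, an abundant miRNA that rises in many tissues with growth and fibrosis, ranged from 12077 to 18985 CPM in the family (median 14652) and from 11361 to 15450 CPM in the others (median 12821). Its log2 fold change was 0.17 (SE 0.08, p = 0.0435), and its other arm miR-21-3p, at a median of 62.5 CPM in the family, had a log2 fold change of -0.01 (SE 0.17). miR-2285dl-3p was above the median of the others in 8 of 8 family steers, at medians of 2.27 and 1.65 CPM, and miR-2285b was above it in 7 of 8.

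**Figure D2:**
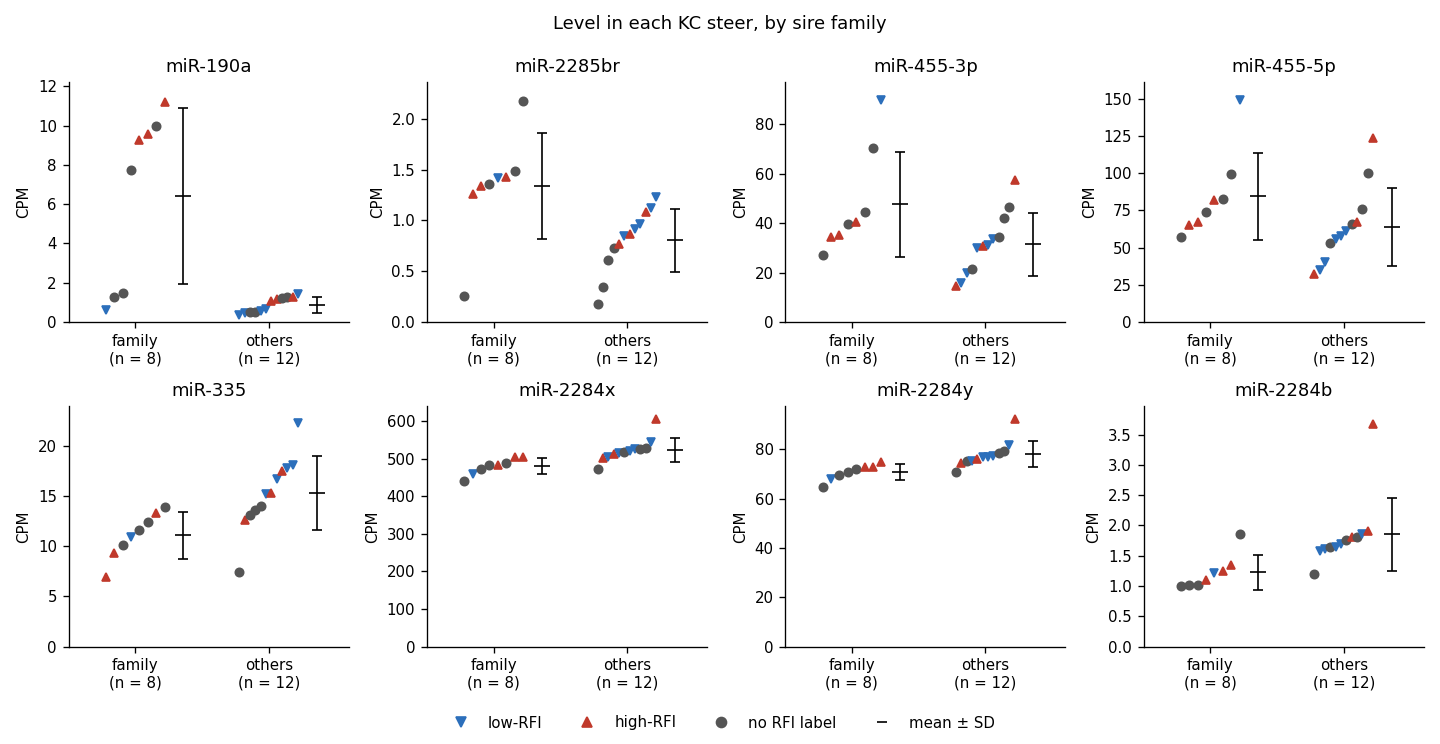
CPM of 8 miRNAs in each KC steer, with the 8 family steers on the left and the other 12 on the right of each panel, marker shape and color giving the RFI group, and a bar for the mean and SD of each group. The groups overlap in every panel, and the 7 upper family steers of miR-2285br lie above all 12 others.

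Among the miRNAs with a negative log2 fold change, miR-335 had the smallest p-value. It lies within MEST, a gene that in mammals is expressed from the paternal copy, and the hairpin is known to be made from the same transcript. In the family miR-335 ranged from 6.91 to 13.96 CPM with a median of 11.3, and in the others from 7.40 to 22.3 CPM with a median of 15.3. All 8 family steers were below the median of the others, and 8 of the 12 others were above the highest family steer. The log2 fold change was -0.47 (SE 0.16, p = 0.0074, adjusted p = 0.801 by edgeR, exact permutation p = 0.0146). The difference in mean log2 CPM was -0.66 among high-RFI steers and -0.70 for the single low-RFI family steer against 5 others, but 0.03 among the steers without an RFI group. One other steer, which at 7.40 CPM was the lowest of the 12, bore on this. Without that steer the adjusted p-value was 0.108, the smallest from a model fit for any miRNA other than miR-190a over the 37 alternatives, and the log2 fold change was -0.53.

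The miR-424, miR-450 and miR-542 hairpins neighbour each other within 10000 bases on chromosome X, which sons take from their dam. They are cut from a common transcript in mammals. All 5 tested members of the cluster had a negative log2 fold change, as had 49.4% of all miRNAs. Of the 5, 2 were at p under 0.05 before adjustment, beside 3.32% of all miRNAs on the lower side, and none after it, with a median log2 fold change of -0.43 against 0.0024 for all miRNAs. miR-424-5p, which shares its seed with the miR-15 and miR-16 group of cell cycle regulators, ranged from 7.40 to 16.6 CPM in the family (median 12.7) and from 10.5 to 76.0 CPM in the others (median 18.1). Every family steer was below the median of the others. Its log2 fold change was -0.82 (SE 0.32, p = 0.0174, adjusted p = 0.801).

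miR-450b, the most abundant member, ranged from 76.3 to 166.3 CPM in the family (median 116.9) and from 99.9 to 218.4 CPM in the others (median 159.2), with 4 family steers below all others. Its log2 fold change was -0.38 (SE 0.16, p = 0.0243, adjusted p = 0.801). miR-450a had medians of 28.05 and 34.4 CPM and a log2 fold change of -0.22 (SE 0.16, p = 0.198). miR-424-3p and miR-542-5p, at medians of 1.12 and 1.42 CPM in the family, had log2 fold changes of -0.63 (SE 0.41) and -0.43 (SE 0.22).

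The order of the steers was partly shared within the cluster. The same 4 family steers were the 4 highest for miR-424-5p, miR-450b and miR-450a, and a single steer among the others, the one with sire label NA00000001, was the highest of the 12 for all 5 members. For miR-424-5p this steer stood at 76.0 CPM and the next at 35.2 CPM. Without it the log2 fold change of miR-424-5p was -0.47, and with RFI group in the model it was -0.53 (p = 0.11). Among the steers without an RFI group it was -0.08.

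**Figure D3:**
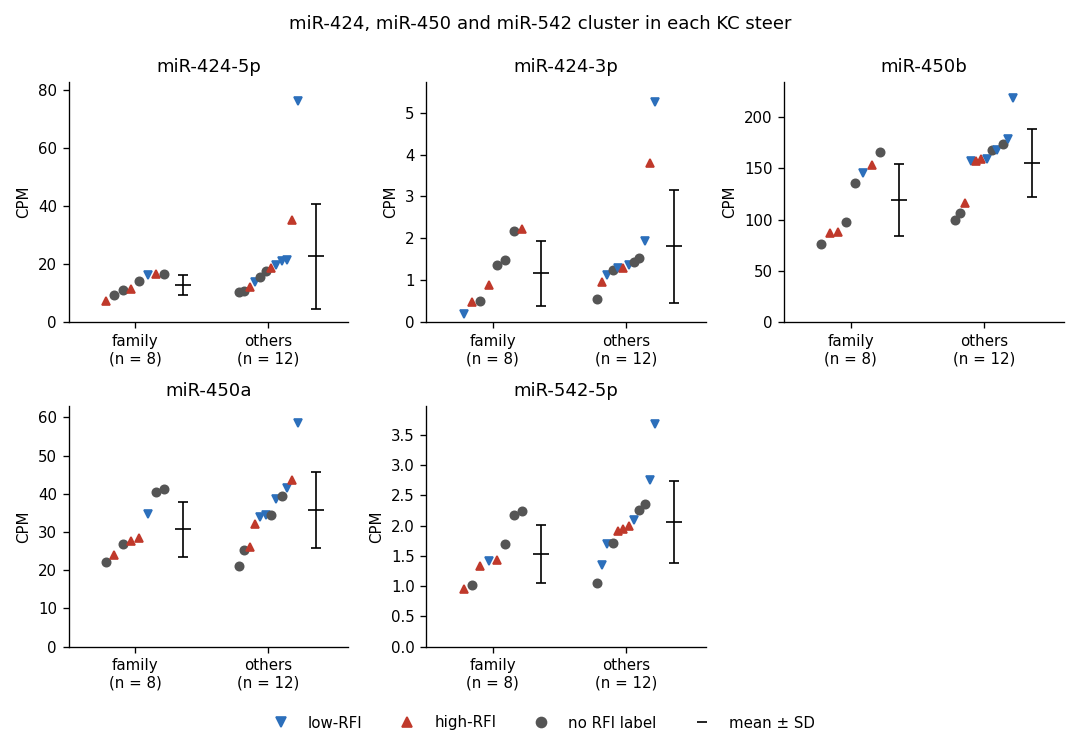
CPM of the 5 tested miRNAs of the chromosome X cluster in each KC steer, with markers for the RFI group and a bar for the mean and SD of each group. The family lies lower on average in each panel with wide overlap, and the highest of the other steers is the same animal in all 5 panels.

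A small difference was seen in the reads of miR-2284x. It belongs to the miR-2284 group, a large ruminant family of miRNAs derived from a repeated element, whose functions are little known. miR-2284x ranged from 440.4 to 504.0 CPM in the family (median 483.1) and from 471.3 to 606.1 CPM in the others (median 517.9). No family steer was above the median of the others, and 9 of the 12 others were above the highest family steer. The log2 fold change was -0.12 (SE 0.05), which is a level lower by a factor of 1.09, at p = 0.0221 and an adjusted p of 0.801 by edgeR. By the exact permutation test the p-value was 0.00117, or 0.0913 adjusted over the 391 miRNAs.

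miR-2284y had from 64.8 to 74.9 CPM in the family (median 71.4) and from 70.8 to 92.4 CPM in the others (median 77.1). miR-2285av had medians of 64.0 and 69.0 CPM. Their log2 fold changes were both -0.14 (SE 0.06), and their exact p-values of 0.00046 and 0.00052 were the smallest of all 391, ahead of 0.00056 for miR-190a, with an adjusted value of 0.0735 for each. These 3 names are not separate measurements. At the mir-2284x precursor, which holds most of the reads, the counts listed under miR-2284x, miR-2284y and miR-2285av were identical in 9 of 20 steers and differed by at most 4 counts in the rest, at totals of 1866 to 3353.

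miR-2284aa, which is listed on 11 precursors, had medians of 33.6 CPM in the family and 39.0 CPM in the others, with a log2 fold change of -0.19 (SE 0.08). miR-2284b, a low-count member, had 1.22 ± 0.287 CPM in the family (SD, n = 8) and 1.85 ± 0.605 CPM in the others (SD, n = 12). Its log2 fold change was -0.56 (SE 0.20), and 4 family steers were below every other steer. Over the whole group, 12 of 31 listed miR-2284 names were tested, and 10 of these had a negative log2 fold change, beside 49.4% of all miRNAs. Of the 10, 4 were at p under 0.05 before adjustment, beside 3.32% of all miRNAs on the lower side, and 0 after it. These 4 include miR-2284x and miR-2284y, which share reads. miR-2284aa and miR-2284z share precursors as well, and miR-2284h-5p is listed on a precursor of miR-2284y. The 10 names are thus not all separate measurements. The summed level of the group, most of it miR-2284x, was 617.2 to 705.1 CPM in the family and 676.1 to 852.8 CPM in the others, with no family steer above the median of the others. Most of the related miR-2285 names did not share this direction, with 36 of 53 tested above zero, beside 198 of all 391, and a median log2 fold change of 0.05. At p under 0.05 before adjustment 3 were higher and 1 lower. The lower one was miR-2285av, which shares reads with miR-2284x and miR-2284y, so the miR-2284 and miR-2285 names are not fully separate.

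The other low-count miRNAs on the lower side were miR-6522 and miR-6517, whose functions are little known. miR-6522 ranged from 0.497 to 2.03 CPM in the family (median 1.09) and from 0.684 to 3.89 CPM in the others (median 1.94), with 3 family steers below all others. Its log2 fold change was -0.77 (SE 0.32, p = 0.0235, adjusted p = 0.801). miR-6517 ranged from 0.339 to 1.86 CPM in the family (median 0.521) and from 0.513 to 1.95 CPM in the others (median 1.23). In 6 of 8 family steers and 1 of 12 others it had 3 counts or fewer. It therefore met the minimum of 1 CPM mostly in the others, where it was higher. The log2 fold change was -0.74 (SE 0.31, p = 0.0267) and became -1.12 without family steer 1, the highest of the 8, with an adjusted p-value of 0.198. At higher levels, miR-345-3p had medians of 16.7 and 17.97 CPM with a log2 fold change of -0.20 (SE 0.10), and its other arm miR-345-5p had 0.03 (SE 0.21). miR-11995 had medians of 10.3 and 12.6 CPM with a log2 fold change of -0.32 (SE 0.15).

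Some of the most abundant liver miRNAs had small negative log2 fold changes. miR-148a, which in liver acts on lipoprotein receptor and cholesterol genes, ranged from 110539 to 127485 CPM in the family (median 118096) and from 118956 to 140999 CPM in the others (median 123979). Its log2 fold change was -0.09 (SE 0.05, p = 0.0519 by edgeR), and 4 family steers lay below all others. By the exact permutation test the p-value was 0.0147, or 0.638 adjusted. miR-101 had medians of 13332 and 14526 CPM and let-7g had 2738 and 2878 CPM. miR-98, a let-7 relative with the same seed whose hairpin lies within HUWE1 beside a let-7f hairpin, had medians of 532.0 and 567.5 CPM and a log2 fold change of -0.14 (SE 0.06, p = 0.0290). For let-7f the log2 fold change was -0.11 (SE 0.06, p = 0.114). Over the let-7 and miR-98 list, 7 of 9 members were below zero, beside 49.4% of all miRNAs, at a median of -0.06. Of the 9, 1 was at p under 0.05 before adjustment by edgeR and 0 after it. Of the 24 named miRNAs besides miR-190a, 7 had a mean of at least 100 CPM, and the largest difference among these was 1.3-fold, for miR-450b.

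Lists of miRNAs that mark cell types were set beside these values. The hepatocyte list (miR-122, miR-148a, miR-192, miR-194 and miR-885) summed to between 335585 and 380426 CPM in the family and between 332446 and 413054 CPM in the others, and was high in all 20 steers, as the tissue label has it. Its 5 members had 0 calls and a median log2 fold change of -0.07. miR-122, the liver-specific miRNA, had medians of 8730 and 7696 CPM. The erythroid list (miR-144, miR-451 and miR-486) summed to 5714 to 14750 CPM in the family and 3919 to 13320 CPM in the others, and the leukocyte list to 4628 to 5986 and 5001 to 7465 CPM. The mesenchymal, endothelial, biliary epithelial and muscle lists also overlapped between the groups. None of the 7 lists held a member at p under 0.05 before adjustment by edgeR, and the exact permutation test of the summed levels gave p-values of 0.166 to 0.976, or 0.517 and above after adjustment over 8 values with the library total. In bulk tissue, fewer cells of a type and less miRNA per cell cannot be told apart, and the part of cell make-up in the differences above was not tested.

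Other groups tied to liver function showed no called member. The list for lipid and glucose metabolism held 14 miRNAs, among them miR-33a, miR-27b, miR-107 and miR-378. Of these 14, 10 had a negative log2 fold change, beside 49.4% of all miRNAs. By edgeR 0 reached p under 0.05 before adjustment, and the median was -0.08. Their summed level, most of it miR-148a, was 147338 to 166707 CPM in the family (median 160439). In the others it was 155011 to 179866 CPM (median 165473), and 2 of 8 family steers were above that median. The miR-34 and miR-449 list, a p53-responsive group, had 3 tested members, all below zero at a median of -0.38. None of the 3 was at p under 0.05 before adjustment by edgeR. miR-34a ranged from 4.72 to 19.5 CPM in the family and from 6.76 to 22.5 CPM in the others. The 13 tested members of the miR-17-92 cluster and its paralogues, known for promoting proliferation, had a median of -0.02. The miR-183 cluster had 3 members above zero at a median of 0.33, none at p under 0.05 before adjustment. The DLK1-DIO3 cluster, an imprinted locus whose miRNAs are made from the maternal copy, had 31 tested members, 15 above and 16 below zero, at a median of -0.0037 and with 0 calls.

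**Figure D4:**
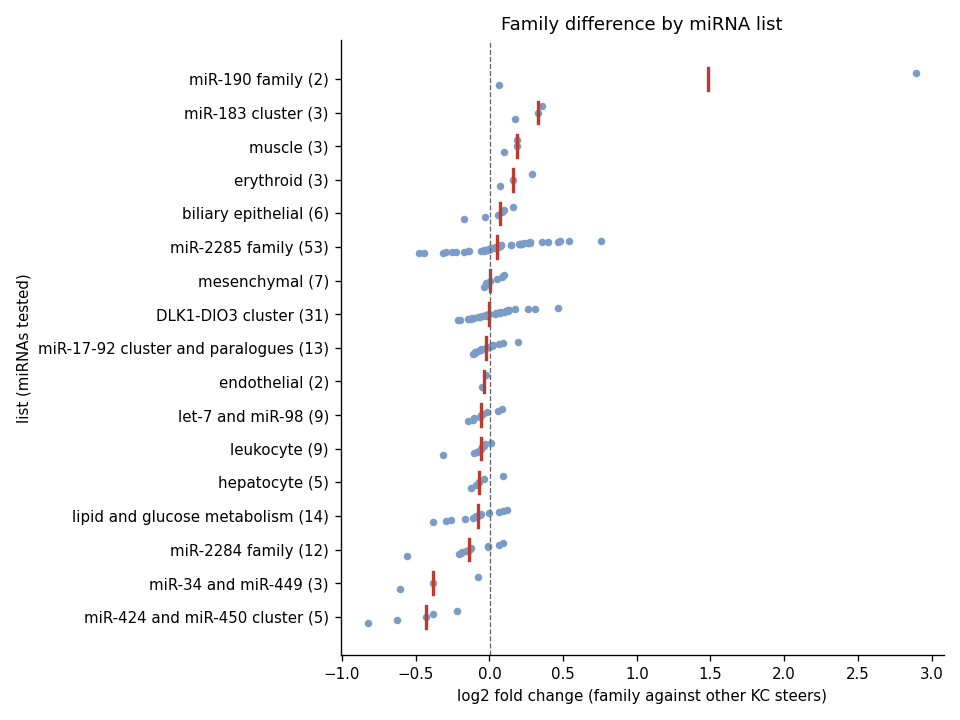
Log2 fold change of the family against the other KC steers for the tested members of each list, with a point per miRNA, a red bar for the list's median and a dashed line for the median of all 391 miRNAs. Apart from miR-190a the members lie between -0.82 and 0.75, and the miR-424 and miR-450 cluster has the lowest median at -0.43.

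A greater likeness among the family steers was not detected. Over the 391 miRNAs the Spearman correlation between steers averaged 0.9717 for the 28 pairs within the family, 0.9702 for the 96 pairs between a family steer and another steer and 0.9704 for the 66 pairs among the others. The correlation within the family exceeded that to the others by 0.00151 (two-sided exact permutation p = 0.228 over 125970 labellings). Among the 20 leave-one-out values this difference ran from 0.00059 to 0.0025, and it passed p = 0.05 only without family steer 6, at 0.0025 and p = 0.0422. The 3 steers of sire K201100176 correlated at 0.966 to 0.971 with each other. The SD of log2 CPM between steers had a median of 0.353 in the family and 0.372 in the others, and was larger in the family for 189 of 391 miRNAs.

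RFI group was unevenly spread over the family, so it was also entered in the model. With it, 1 miRNA was again called, miR-190a (log2 fold change 2.46, SE 0.41, adjusted p = 0.00269). For the others the smallest adjusted p-value was 0.924. miR-2285br had a log2 fold change of 0.92 (SE 0.30, p = 0.00538), miR-101 of -0.13 (SE 0.05, p = 0.0121) and miR-2284b of -0.60 (SE 0.21, p = 0.0132). Closer to zero than without RFI group were miR-450b at -0.28 (p = 0.0928), miR-11995 at -0.26 (p = 0.12) and miR-2285dl-3p at 0.31 (p = 0.16). Of the 24 named miRNAs besides miR-190a, 14 were at p under 0.05 before adjustment with RFI group in the model, against 21 without it.

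A Charolais family of equal size, 8 progeny of sire C199401469 against 12 other Charolais steers, was tested in the same way. Of 384 miRNAs 1 was called there (0.26%), miR-495 of the DLK1-DIO3 cluster, with a log2 fold change of -0.67 (SE 0.14, adjusted p = 0.0198). Before adjustment 56 (14.6%) were under 0.05. RFI group was uneven in Charolais too, with more high-RFI steers in the family and more low-RFI steers among the others. It entered neither this model nor the joint test below. The other Charolais steers carried fewer sire labels than the other KC steers, so the breeds are not alike in make-up. In the KC family miR-495 had medians of 7.24 and 7.91 CPM and a log2 fold change of -0.10 (SE 0.24), and the difference between the families was 0.57 (SE 0.28, adjusted p = 0.368). Tested miRNA by miRNA over 393 miRNAs, the KC contrast differed from the Charolais one for 1 (0.254%), miR-190a, and for 53 (13.5%) at p under 0.05 before adjustment. miR-190a was below the minimum level for a test within Charolais, where it ranged up to 1.68 CPM (median 0.769), and it entered the joint test through the KC steers. The difference was 3.40 on the log2 scale (SE 0.66, adjusted p = 0.00296), and it is not independent of the KC call.

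For the other named miRNAs the 2 families were set side by side. miR-335 was at -0.47 in the KC family and -0.03 in the Charolais family, a difference of -0.44 (SE 0.24, adjusted p = 0.409). miR-2284x was at -0.12 and 0.09, a difference of -0.22 (SE 0.07, adjusted p = 0.180). miR-6517 was at -0.74 and 0.65, a difference of -1.41 (SE 0.42, adjusted p = 0.137), although its level in the KC family rests on few counts. miR-2285dl-3p was higher in both families, at 0.40 and 0.54. Apart from miR-190a none of these differences passed the adjusted threshold.

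**Figure D5:**
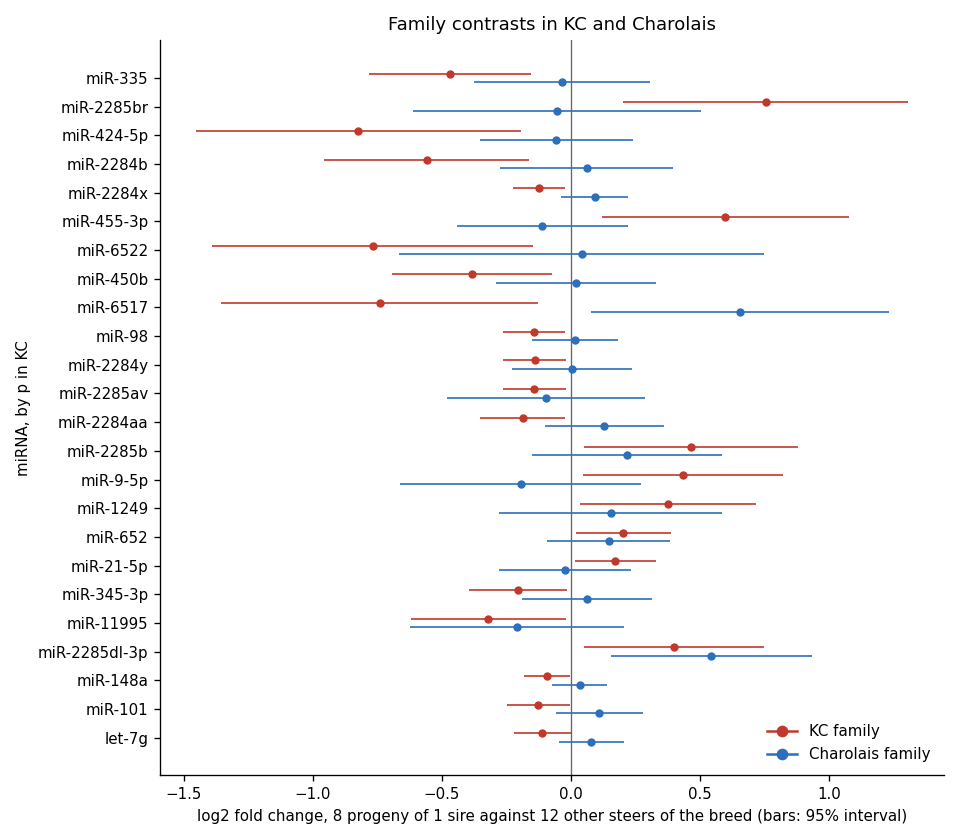
Log2 fold change of 8 progeny of 1 sire against 12 other steers of the breed, in KC (red) and Charolais (blue), for the 24 named miRNAs besides miR-190a, with bars for the approximate 95% interval. The KC values were those that chose the miRNAs, and the Charolais values lie on either side of zero.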

How the data were processed

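Small RNA libraries of 60 steer livers, 1 per steer, were sequenced. Per the methods and the submitters' processing notes, the authors trimmed reads with cutadapt 1.16, removed other small RNAs, and counted known bovine miRNAs with miRDeep2 on UMD3.1. The deposited values are raw counts per pair of mature miRNA and precursor. Counts were averaged over precursors and rounded. Steers were grouped by sire label. edgeR 4.0.16 (quasi-likelihood test, TMM; limma 3.58.1, R 4.3.3) was fitted to the 20 KC steers over miRNAs that reached 1 CPM in 8 or more steers, and adjusted by Benjamini-Hochberg at 0.05. Log2 CPM used a prior count of 0.5. Exact tests enumerated every choice of 8 of 20 steers, and cannot go below p = 7.94e-06. Intervals are the log2 fold change with 1.96 standard errors, which makes them slightly narrower than the F test would. The procedure was tested on simulated data.

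Named are the 25 miRNAs with the smallest p-values, plus any whose groups did not overlap, which none did. The members of the family and the lists were chosen with earlier results of these data known. Alternatives covered the test, scaling, filter, precursors, depth, RFI group and steers left out, with DESeq2 1.42.0 among them. Mature sequences came from the study's supplementary list. Names of host and neighbouring genes came from RefSeq's ARS-UCD2.0 gene table, where 1032 of 1064 precursors matched, and no coordinates are given since the builds differ. Python 3.11.15 was used elsewhere.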

Additional observations from a re-analysis of the deposited data

Results flagged for a closer look

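A family steer stood apart from the other 7 by Dixon's test in 2 of 43 values examined, where chance alone gives about 1 in 20. For miR-2284b the highest family steer had 1.86 CPM and the next 1.34 CPM. For the summed miR-183 cluster the highest family steer had 902.4 CPM and the next 518.6 CPM, and this was the same steer in both. It was also the highest of the family for miR-182 (843.0 CPM), miR-183 (44.8 CPM) and miR-96 (14.6 CPM), above every one of the other 12 steers for each. The difference between the KC and the Charolais family for miR-190a was flagged by the joint test, at 3.40 on the log2 scale with an adjusted edgeR p of 0.00296. miR-190a was too low to be tested within Charolais and entered that test through the KC steers, so it is no support apart from the KC call.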

How the results depend on the processing

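No miRNA other than miR-190a passed an adjusted p under 0.05 in any of the 37 alternatives planned, which included leaving out each of 20 steers. The count of adjusted calls was 1 in most and 0 with limma-voom, with limma-voom and sire as a random block, at a mean of at least 10 CPM (which removes miR-190a), in the steers without an RFI group, and by the exact permutation test, an alternative added after the data were seen, in which 23 miRNAs had an unadjusted p under 0.05. For miR-190a the log2 fold change was 2.43 with limma-voom (adjusted p = 0.161), 2.47 with the sire block (adjusted p = 0.374) and 2.58 in the steers without an RFI group (adjusted p = 0.960).

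The count at an unadjusted p under 0.05, 22 in the report, was 13 by the likelihood-ratio test, 11 with the sire block, 38 without a filter, 12 at a mean of at least 10 CPM, 13 in the steers without an RFI group, and 14 to 25 on leaving out 1 steer, the lowest without other steer 11. With a fold change above 1.5 the count of 6 became 26 without a filter, 2 at a mean of at least 10 CPM and 17 in high-RFI steers, and was 5 to 7 on leaving out 1 steer. The difference in likeness ran from 0.00059 to 0.0025 on leaving out 1 steer. In the Charolais family the adjusted count was 2 by the likelihood-ratio test and 0 at a mean of at least 10 CPM, where the count of differences between families was also 0.

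Of 916 values of named miRNAs under alternatives, 3 turned in sign. Since 24 of the 25 named miRNAs were far from the adjusted threshold, their staying on the same side of it says nothing about stability. miR-335 was at 0.00 (0.00075) in the steers without an RFI group, and miR-9-5p was at -0.079 in steers with an RFI group and at -0.14 in high-RFI steers alone. Without family steer 1, miR-6517 moved from -0.74 to -1.12 (adjusted p = 0.198). The cause of these changes was not tested. No paired analysis was possible because steer numbers in the labels only name steers. Low counts limit miR-2285br, miR-2284b, miR-6522 and miR-6517, which lie near the floor of 3 counts.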
